A study of Sus scrofa with 9 samples.

Results

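The 9 myogenic transcription factor genes PAX7, PAX3, MYF5, MYF6, MYOD1, MYOG, MEF2A, MEF2C and MEF2D were chosen by symbol, and all 9 were found among the 27339 genes of the count table. Messenger RNA had been sequenced from 9 libraries of cells labelled as primary Gottingen pig myoblasts at passages 7 to 9. The transgene switched on by doxycycline was human DUX4 in 3 libraries, pig DUXC in 3, and GFP, the control, in the remaining 3. All groups, the control included, were kept in 1 µg/mL doxycycline for 16 h before harvest. DUX4 is a homeobox factor of the early human embryo that causes facioscapulohumeral muscular dystrophy when it is misexpressed in muscle. DUXC is a relative of it in the pig. The labels do not give the promoter that drives the transgenes, the number of animals behind the cells or whether a line is clonal, and nothing in them states that replicates came from separate cultures. The p-values may thus reflect no more than technical spread between libraries.

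Skeletal muscle precursors are specified by a short cascade of DNA-binding factors. The paired-box factors PAX3 and PAX7 act at the top, in the embryonic muscle progenitor and in the satellite cell, the stem cell of adult muscle. Below them stand the basic helix-loop-helix (bHLH) factors MYF5 and MYOD1, which commit cells to the myoblast fate, MYOG, which drives differentiation, and MYF6, which acts in differentiation and in the mature fibre. MEF2 proteins of the MADS-box class bind with the bHLH factors at muscle genes but are also made in many other cell types.

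The total count per library lay between 36580573 and 44420895. Levels are given as CPM, normalised read counts on a common scale set by the TMM-adjusted library size, as mean ± SD of n = 3 libraries. They are not per length, so they are compared between groups for a gene and not between genes. Markers of the label were uneven. Of 9 skeletal myoblast markers, 4 reached 1 CPM in the GFP group, 4 in the DUX4 group and 7 in the DUXC group, and their sum was 156 to 162 CPM with GFP, 268 to 275 CPM with DUX4 and 162 to 163 CPM with DUXC. MET was the largest part of the sum with each transgene, at 148 CPM with DUX4 and 91.0 with DUXC. NCAM1 stood at 105 and 55.8 CPM in those groups, DES at 2.10 and 1.07, and ITGA7 at 14.8 and 4.07. In the control NCAM1 and MET, which other cell types also express, led at 86.4 and 59.3 CPM, followed by DES at 7.15 and ITGA7 at 5.77 CPM. There CHRNA1, FGFR4 and CDH15 were below 1 CPM, MYMK had 3 counts over the group and CALCR had none. All 10 fibroblast markers reached 10 CPM there. Their sum ranged from 55530 to 58690 CPM in the GFP group, 30870 to 34780 in the DUX4 group and 27470 to 27650 in the DUXC group. COL1A1, COL1A2 and COL3A1 made up most of it, at 16750, 19250 and 12270 CPM with GFP. PDGFRA was lower with DUX4 and higher with DUXC, at 373, 163 and 925.5 CPM with GFP, DUX4 and DUXC. POSTN was higher with DUX4, at 24.4, 41.6 and 25.1 CPM in that order. The other fibroblast markers were lower with both transgenes. The part of these markers in the results was not tested. In bulk RNA, fewer cells of a type and less RNA per cell cannot be told apart.

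With DUXC, PAX7, PAX3, MYF5 and MEF2C rose and MEF2A and MEF2D fell, while with DUX4 only MYF5 and MEF2C among the tested factors passed, both upward. MYOD1, MYOG and MYF6 were too scarce in every group to be tested. Of the 6 tested factors, 2 changed with DUX4 against GFP, both higher, where 64.8% of all 15956 tested genes were called, 32.9% higher and 31.9% lower. No factor was lower in that comparison by edgeR, with 0 also at an unadjusted p under 0.05, and 0 by DESeq2 or limma-voom. Against GFP, DUXC had 4 higher and 2 lower, where 82.5% of all tested genes were called, 40.2% higher and 42.3% lower. In the direct comparison of DUX4 with DUXC, 2 factors were higher with DUX4 and 3 lower, where 82.4% of all tested genes were called, 40.8% higher and 41.6% lower. A gene scarce with GFP enters the test only through its counts with a transgene, so these counts cover the tested members only. The median log2 fold change of the 6 factors was 0.22 with DUX4 and 1.31 with DUXC, and that of all tested genes was 0.0035 and -0.031. Both comparisons with GFP share the same 3 control libraries. The 3 libraries of a group lay apart from the 3 controls for 2 of the 6 factors with DUX4, where 67.0% of all tested genes did so, and for all 6 with DUXC, where 83.5% did. Between DUX4 and DUXC they lay apart for 5 of the 6, and for 83.0% of all tested genes.

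**Figure D1:**
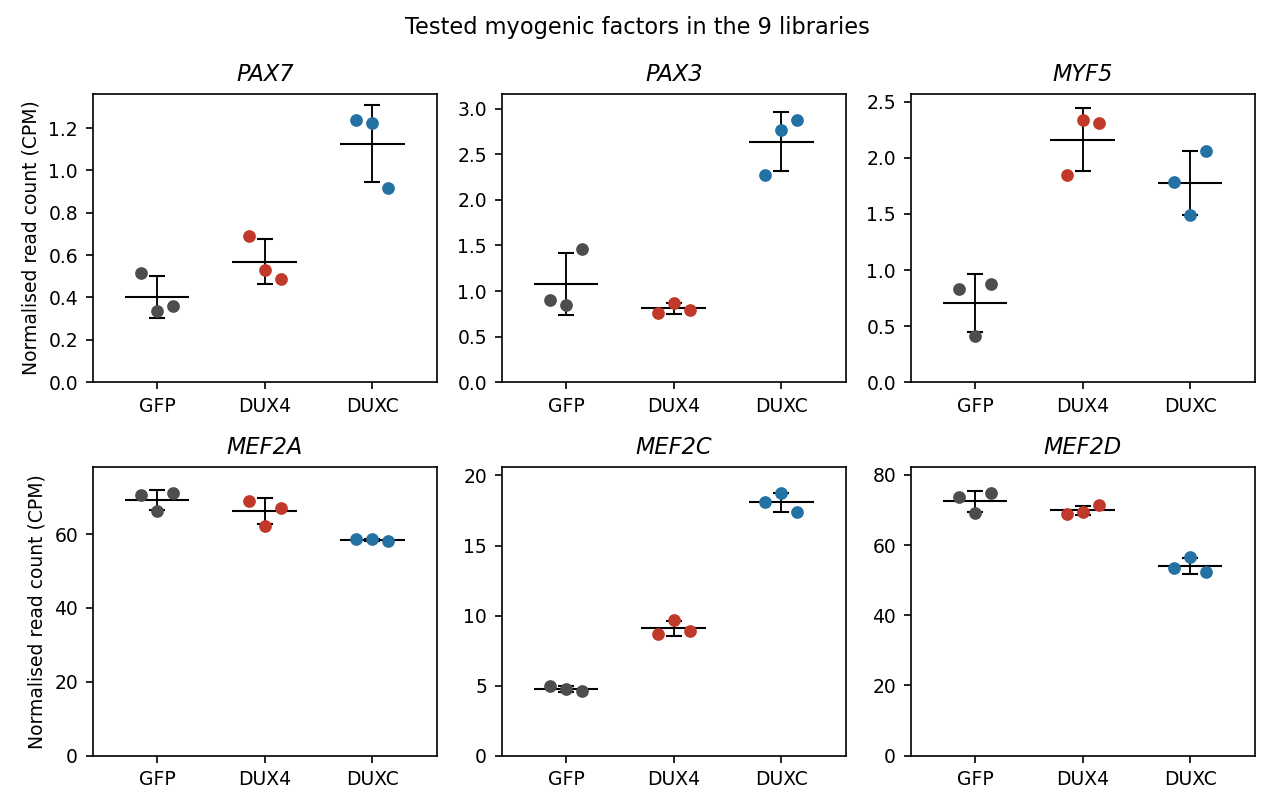
Normalised read count (CPM, linear axis from 0, own scale per gene) of the 6 tested factors in each library of the GFP, DUX4 and DUXC groups; points are libraries, bars the mean and SD of n = 3. The DUXC points lie above all GFP points for PAX7, PAX3, MYF5 and MEF2C and below them for MEF2A and MEF2D.

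PAX7, the factor that marks and maintains satellite cells (NCBI gene 100625823, Sscrofa11.1 chromosome 6, 77160827 to 77268626), had 21, 13 and 14 reads in the GFP libraries, 28, 23 and 19 with DUX4 and 48, 50 and 36 with DUXC. All 3 DUXC libraries were above all others, and the DUX4 and GFP libraries overlapped. The level with DUXC was 1.13 ± 0.182 CPM against 0.402 ± 0.0975 with GFP, a log2 fold change of 1.47 ± 0.264 (SE; edgeR adjusted p = 2.13e-06). With DUX4 it was 0.568 ± 0.107 CPM, and the difference from GFP of 0.49 ± 0.301 on the log2 scale did not pass (edgeR adjusted p = 0.153). The difference between the transgenes passed, with DUX4 lower than DUXC by a log2 fold change of -0.99 ± 0.244 (edgeR adjusted p = 0.000298).

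PAX3, which specifies embryonic and limb muscle progenitors and also neural crest (NCBI gene 414901, chromosome 15, 124093803 to 124193041), had 37, 33 and 57 reads with GFP, 31, 38 and 31 with DUX4 and 88, 113 and 113 with DUXC. Every DUXC library lay above every other library, and the DUX4 libraries overlapped the lower GFP libraries. PAX3 rose with DUXC from 1.07 ± 0.340 to 2.64 ± 0.323 CPM (log2 1.30 ± 0.180 edgeR adjusted p = 8.00e-09). With DUX4 it stood at 0.810 ± 0.0563 CPM, and the log2 difference of -0.40 ± 0.224 from GFP did not pass (edgeR adjusted p = 0.116, 0.0481 to 0.716 over the alternatives). That difference rested on the GFP libraries: it was -0.11 without GFP replicate 3, and without GFP replicate 2 it was -0.54 and passed. Between the transgenes PAX3 was lower with DUX4 by a log2 fold change of -1.70 ± 0.188 (edgeR adjusted p = 2.35e-11), the widest gap between them among the 6 tested factors.

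The summed level of 6 neural crest and melanocyte markers stood in the same order of groups as the PAX3 means, carried by MITF. For PAX3 the difference between DUX4 and GFP within that order did not pass. The sum was 25.4 to 29.6 CPM in the GFP group, 11.4 to 12.4 in the DUX4 group and 61.7 to 65.5 in the DUXC group, of which MITF, the melanocyte factor, made up 26.2, 10.2 and 48.6 CPM on average. With GFP and DUX4, 1 of the 6 reached 1 CPM, and 3 did with DUXC. Of the others, TFAP2B followed that order too, at 0.791, 0.513 and 1.55 CPM with GFP, DUX4 and DUXC. The other 4 were higher with DUX4 than with GFP: PMEL ran 0.193, 0.384 and 12.8 CPM, and over the groups FOXD3 had 2, 11 and 13 counts, DCT 6, 49 and 7, and SOX10, a defining neural crest factor, 13, 41 and 10. Their part in the PAX3 result was not tested.

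MYF5, the bHLH factor that is switched on first in the embryo (NCBI gene 100153269, chromosome 5, 100753440 to 100755558), was raised by both transgenes. It had 34, 16 and 34 reads with GFP, 75, 102 and 90 with DUX4 and 69, 61 and 81 with DUXC. All 6 libraries with a homeobox transgene were above the 3 controls, and the DUX4 and DUXC libraries overlapped each other. The level went from 0.705 ± 0.256 CPM with GFP to 2.16 ± 0.277 with DUX4 (log2 1.61 ± 0.206, edgeR adjusted p = 2.79e-09) and to 1.78 ± 0.285 with DUXC (log2 1.33 ± 0.215, edgeR adjusted p = 3.21e-07). The difference between the transgenes was 0.28 ± 0.172 on the log2 scale and did not pass (edgeR adjusted p = 0.122, 0.0410 to 0.411 over the alternatives). Without DUX4 replicate 1, the lowest of its group, it was 0.40 and passed.

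MYF6, also called MRF4, lies 7359 bases beyond MYF5 on the same chromosome (NCBI gene 397005, chromosome 5, 100762918 to 100764771), a pair of neighbouring genes. Its reads numbered 2, 0 and 0 with GFP, 2, 3 and 2 with DUX4 and 7, 12 and 9 with DUXC. Each DUXC library held more reads than any other library. Over the groups the counts were 2, 7 and 28, and the ratio of DUXC to GFP, scaled by library size, was 14.0 with a 95% interval of 3.53 to 121. For DUX4 against GFP the ratio was 3.37 (0.642 to 33.3), an interval that includes no change. DUX4 had 0.241 of the DUXC level (0.0889 to 0.565). These intervals are exact, cover counting error only and rest on very few reads. When the low-count filter was dropped so that MYF6 entered the edgeR fit, DUXC against GFP had an adjusted p of 8.41e-05 and DUX4 against DUXC one of 0.00686. The span of LOC110260827 overlaps both MYF5 and MYF6, so their counts may hold reads of it. That locus itself had 9, 3 and 16 counts with GFP, DUX4 and DUXC.

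MYOD1, the factor able to turn fibroblasts into muscle (NCBI gene 407604, chromosome 2, 41422522 to 41424236), had 0, 0 and 1 reads with GFP, 3, 1 and 5 with DUX4 and 0, 2 and 2 with DUXC. The libraries of the groups overlapped in each comparison. The ratio to GFP was 8.67 (1.20 to 380.1) with DUX4, whose interval counts 9 reads against 1, and 4 (0.396 to 197) with DUXC. In the unfiltered edgeR fit neither passed, with adjusted p-values of 0.0768 and 0.349. MYOG, or myogenin (NCBI gene 497618, chromosome 9, 113783233 to 113785312), had 4, 2 and 0 reads with GFP, 6, 3 and 2 with DUX4 and 7, 8 and 4 with DUXC. The groups overlapped or tied at their edges in each comparison. Its ratio to GFP was 3.17 (1.22 to 9.68) with DUXC and 1.77 (0.599 to 5.82) with DUX4. Neither passed in the unfiltered edgeR fit, at adjusted p = 0.0590 and 0.505. For scale, a sum of 3 counts equals 0.0253 CPM in the GFP group, 0.0243 in the DUX4 group and 0.0252 in the DUXC group.

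**Figure D2:**
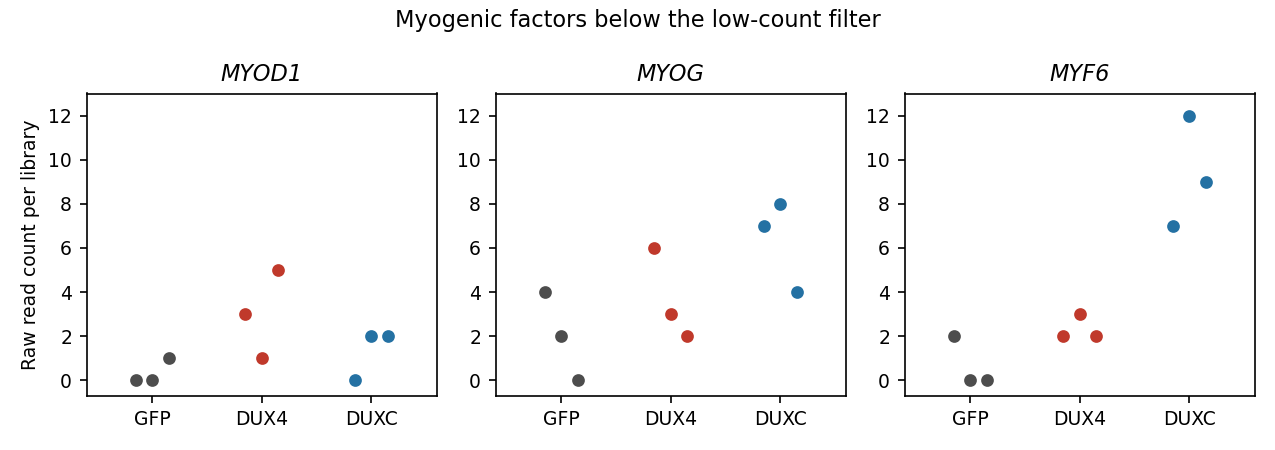
Raw read counts per library (linear axis) of MYOD1, MYOG and MYF6, which fell below the low-count filter; each point is 1 library of the GFP, DUX4 or DUXC group. No library exceeds 12 reads, and the 3 DUXC points of MYF6, at 7, 12 and 9, are above all others.

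Among the reads of the 4 bHLH genes together, MYF5 made up 90.3% of 93 with GFP, 90.8% of 294 with DUX4 and 80.5% of 262 with DUXC. MYF6 held 2.15%, 2.38% and 10.7% in the same order. These shares are of pooled reads, not per length, and carry no test.

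MEF2C, the MEF2 gene needed for muscle, heart and vessel development (NCBI gene 733590, chromosome 2, 96122407 to 96296927), was raised by both transgenes and more by DUXC. Its levels were 4.99, 4.72 and 4.59 CPM in the GFP libraries, 8.68, 9.66 and 8.90 with DUX4 and 18.1, 18.7 and 17.4 with DUXC. The groups were separate from each other, in the order GFP, DUX4, DUXC. From 4.77 ± 0.203 CPM with GFP, MEF2C rose to 9.08 ± 0.514 with DUX4 (log2 0.93 ± 0.084, edgeR adjusted p = 1.14e-13). With DUXC it rose to 18.1 ± 0.674 CPM, 3.79-fold (log2 1.92 ± 0.077, edgeR adjusted p = 2.37e-27). The direct difference, -0.99 ± 0.069 on the log2 scale for DUX4 against DUXC, also passed (edgeR adjusted p = 4.03e-18).

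LOC102159394 lies across the span of MEF2C and moved with it, from 56 counts over the GFP libraries to 95 with DUX4 and 426 with DUXC, log2 fold changes of 0.71 and 2.92. MEF2C itself held 567, 1121 and 2148 counts in the same groups, and the reads of the overlapping locus within them cannot be told apart here. Endothelial cells also express MEF2C. The sum of 7 endothelial markers was 69.6 to 72.8 CPM in the GFP group, 86.8 to 91.1 in the DUX4 group and 78.1 to 81.8 in the DUXC group. ERG made up most of it, at 53.3, 75.9 and 48.0 CPM with GFP, DUX4 and DUXC, while PECAM1 stood in the order of MEF2C, at 6.16, 9.38 and 24.7 CPM. EMCN was lower with both transgenes, at 11.2, 2.62 and 6.04 CPM with GFP, DUX4 and DUXC. In every group 3 of the 7 reached 1 CPM. Over the groups the defining cadherin CDH5 had 0, 2 and 11 counts, KDR had 2, 95 and 49, and VWF had 1, 1 and 38. TIE1 had 4, 5 and 6 counts. Their part in the MEF2C result was not tested.

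MEF2A (NCBI gene 100037273, chromosome 1, 138398270 to 138508639) and MEF2D (NCBI gene 100156714, chromosome 4, 93581563 to 93616980), the broadly expressed members of the family, moved little. MEF2A stood at 70.6, 66.2 and 71.1 CPM with GFP, 69.0, 62.3 and 67.2 with DUX4 and 58.6, 58.6 and 58.3 with DUXC. Each DUXC library was below all others, and the DUX4 libraries overlapped the controls. MEF2A fell by 0.25 ± 0.039 on the log2 scale with DUXC (edgeR adjusted p = 1.61e-07) and did not pass with DUX4 (log2 -0.07 ± 0.038, edgeR adjusted p = 0.115, 0.0267 to 0.634 over the alternatives). Leaving out DUX4 replicate 1 or GFP replicate 2 gave -0.10 in each case and a call. MEF2A was higher with DUX4 than with DUXC (log2 0.18 ± 0.039, edgeR adjusted p = 5.45e-05), a call that was lost when libraries were scaled by library size alone (0.08, adjusted p = 0.0657).

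MEF2D had 73.6, 69.1 and 74.8 CPM with GFP, 68.9, 69.3 and 71.4 with DUX4 and 53.4, 56.7 and 52.2 with DUXC. The DUXC libraries were again the lowest, with no overlap, and DUX4 and GFP overlapped. It fell by 0.42 ± 0.038 on the log2 scale with DUXC (edgeR adjusted p = 5.35e-14) and did not pass with DUX4 (log2 -0.05 ± 0.037, edgeR adjusted p = 0.216). DUX4 against DUXC was 0.37 ± 0.038 (edgeR adjusted p = 3.46e-12). Scaling by library size alone raised the log2 fold changes of all tested genes with DUXC against GFP by a median of 0.125. On that scale the log2 fold changes of MEF2A and MEF2D were -0.12 and -0.30, below the median gene at 0.094.

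**Figure D3:**
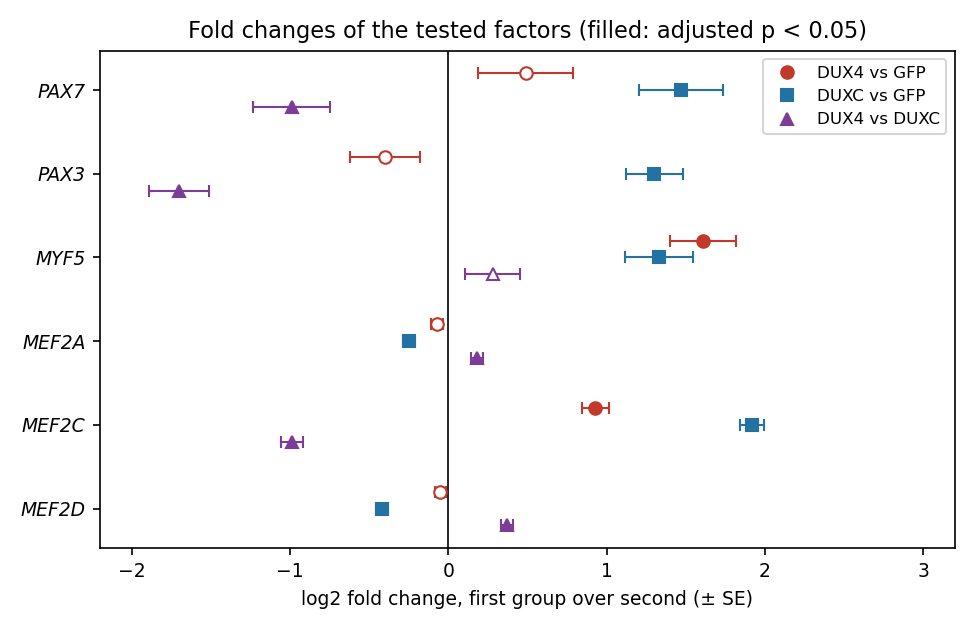
Log2 fold change ± SE of the 6 tested factors in the 3 comparisons (first group over second); filled symbols passed at an adjusted p under 0.05. MEF2C and MYF5 are filled and to the right of 0 for both transgenes against GFP, while against GFP PAX7 and PAX3 are filled for DUXC and open for DUX4, at 0.49 and -0.40.

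MEF2C made up a larger share of the MEF2 reads with each transgene than with GFP in these libraries. As a share of the reads of MEF2A, MEF2C and MEF2D within a library, which needs no scaling between libraries, MEF2C took 3.35%, 3.37% and 3.05% with GFP, 5.92%, 6.84% and 6.03% with DUX4 and 13.9%, 14.0% and 13.6% with DUXC. No library of a group overlapped another group. MEF2D went from 49.5 ± 0.218% with GFP to 48.2 ± 1.06% with DUX4 and 41.4 ± 0.792% with DUXC, and MEF2A from 47.3 ± 0.0491% to 45.6 ± 1.49% and 44.8 ± 0.950%. In an exact two-sided permutation test each of the 3 MEF2C comparisons gave p = 0.1, the smallest that 3 against 3 libraries allow, and 0.113 when adjusted over the 9 shares compared. This design cannot reach 0.05, so the shares are a description.

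**Figure D4:**
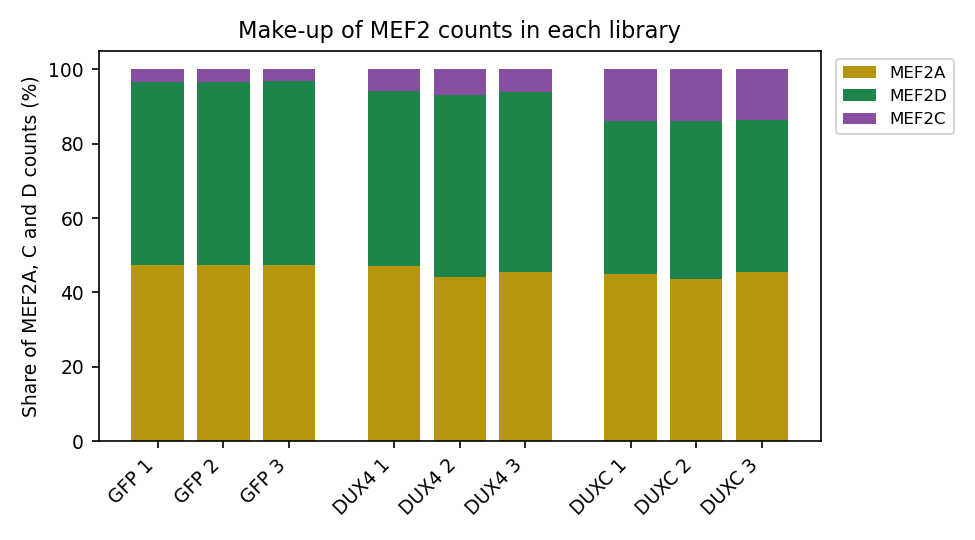
Share of the summed MEF2A, MEF2C and MEF2D read counts (percent, stacked to 100) in each of the 9 libraries. The MEF2C segment averages 3.26% with GFP, 6.26% with DUX4 and 13.8% with DUXC.

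MEF2B, the remaining family member and not among the 9, was scarce. It stood at 0.927 ± 0.135 CPM in the control, 0.557 ± 0.135 with DUX4 and 0.845 ± 0.192 with DUXC. It was lower with DUX4 than with GFP (log2 -0.72 ± 0.256, edgeR adjusted p = 0.0121, 0.00705 to 0.0769 over the alternatives), a call lost without DUX4 replicate 1, at adjusted p = 0.0769, or GFP replicate 2, at 0.0684. With DUXC it did not pass (edgeR adjusted p = 0.599).

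Genes that work around these factors were taken from 6 lists, counted in the same fit and read against the shares of all genes given above. A list gene scarce with GFP likewise entered the test only through its counts with a transgene. Of 19 E proteins, ID inhibitors and bHLH repressors, which pair with the bHLH factors or block them, 8 rose and 11 fell with DUX4 (median log2 -0.17), and 6 rose and 11 fell with DUXC (median -0.33). With DUX4 the repressor BHLHE41 rose from 16.9 ± 1.34 to 37.5 ± 1.73 CPM (log2 1.15, edgeR adjusted p = 4.88e-24). Of the inhibitors that sequester E proteins, ID1 and ID4 rose with DUX4 (log2 0.57 and 0.80), and ID2 and ID3 fell (log2 -0.24 and -0.73). ID1, ID2 and ID3 fell with DUXC (log2 -0.45, -0.42 and -0.45), and ID4 did not pass there (edgeR adjusted p = 0.172). ID2 and ID4 were chosen after their values were seen. With DUXC the E protein gene TCF4 rose from 28.4 ± 0.814 to 112 ± 2.42 CPM (log2 1.98, edgeR adjusted p = 8.05e-40). The repressor SNAI1 rose with DUXC by log2 2.41, and the repressor BHLHE40 fell (log2 -1.39). With DUX4, SNAI1 also rose (log2 0.44), and TCF4 and BHLHE40 fell (log2 -0.30 and -0.13).

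Of 21 tested premyogenic and lineage regulators, from 27 in the table, 10 rose and 5 fell with DUX4 (median log2 0.07), and 11 rose and 6 fell with DUXC (median 0.21). EYA1, EYA4, DACH1, DACH2 and MEOX1, among the 10, stood at only 0.0338 to 0.200 CPM with GFP. They entered the test through their counts with a transgene, EYA4 through its DUXC libraries. All but MEOX1 were chosen after their values were seen. With a filter at a mean of 1 CPM, which tests fewer of the list, 7 rose with DUX4. MEOX1, a homeobox factor of the somite from which trunk muscle forms, rose from 0.0921 ± 0.0367 to 9.73 ± 0.408 CPM with DUXC (log2 6.67 ± 0.202, edgeR adjusted p = 2.64e-32). It also rose with DUX4, to 0.431 CPM (log2 2.18, edgeR adjusted p = 9.24e-06). TBX3 rose with both (log2 0.43 and 1.83). Of the nuclear factor I genes, NFIA fell with DUX4 (log2 -0.90) and less with DUXC (log2 -0.13). NFIC fell with DUXC (log2 -1.17) and rose with DUX4 (log2 0.30). NFIX, chosen after its values were seen, fell with DUXC (log2 -0.75). The others that fell with DUX4 were EYA2, SIX5, RUNX1 and SIX4, at log2 -3.58, -0.37, -0.17 and -0.14, chosen after their values were seen, and the SIX4 call was lost with DESeq2, at adjusted p = 0.0537. EYA2, a coactivator that acts upstream of the bHLH genes, went the other way with DUXC, from 0.421 ± 0.0901 CPM with GFP to 4.07 ± 0.00840 (log2 3.27), against 0.0317 ± 0.0275 with DUX4. The direct difference was -6.84 ± 0.312 on the log2 scale (edgeR adjusted p = 4.54e-25).

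Most MEF2 regulators and cofactors fell. Of 28 tested from 30, 4 rose and 18 fell with DUX4 (median log2 -0.26), and 8 rose and 18 fell with DUXC (median -0.42). The acetyltransferase gene KAT2B fell from 38.7 ± 1.81 to 12.9 ± 0.0656 CPM with DUX4 (log2 -1.59, edgeR adjusted p = 4.43e-30), as did HDAC4, a class IIa deacetylase that represses MEF2 (log2 -0.65), and MAPK14, the p38 kinase that activates it (log2 -0.47). The 4 that rose with DUX4 were HDAC9, MAPK7, CARM1 and PPP3CB, at log2 2.37, 0.65, 0.17 and 0.09, chosen after their values were seen, and the PPP3CB call was lost without DUX4 replicate 1 or GFP replicate 1, at adjusted p = 0.0920 and 0.0567. With DUXC the Notch and MEF2 coactivator gene MAML1 rose from 31.5 ± 2.48 to 349 ± 5.96 CPM (log2 3.47 ± 0.039, edgeR adjusted p = 1.33e-49) and the kinase gene CAMK2G by log2 1.68. The calcineurin subunit gene PPP3CA fell with DUXC (log2 -0.93). KAT2B, HDAC4 and MAPK14 fell with DUXC too (log2 -0.77, -0.89 and -0.07). HDAC9 also rose with DUXC (log2 2.87), while MAPK7 and CARM1 fell (log2 -0.72 and -0.60). CAMK2G fell with DUX4 (log2 -0.24).

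Of 22 tested genes that myogenic bHLH factors bind or activate in muscle, from 32 in the table, 5 rose and 9 fell with DUX4 (median log2 -0.27), and 13 rose and 8 fell with DUXC (median 0.61). With a filter at a mean of 1 CPM, which tests fewer of the list, the numbers that rose were 2 and 7. CHRNA1, JSRP1, MYLPF and TNNC2, scarce with GFP and with DUX4, entered the test through their DUXC libraries. They were chosen after their values were seen, are among the 13 and raise the DUXC median. The 5 that rose with DUX4 were MYL1, RBM24, TNNC2, TNNT1 and KLHL41, at log2 2.79, 2.63, 2.03, 1.49 and 1.29, chosen after their values were seen. TNNC2 entered that test through its DUXC libraries: with the DUX4 and GFP libraries alone it was below the filter and 4 genes rose. Its log2 fold change was 3.32 without GFP replicate 1 and 1.47 without GFP replicate 3. The intermediate filament gene DES fell from 7.15 ± 0.326 to 2.10 ± 0.335 CPM with DUX4 (log2 -1.76, edgeR adjusted p = 2.30e-18), together with the cell cycle inhibitor CDKN1A (log2 -1.17) and ID3, which is also on this list. With DUXC, RASSF4 fell from 58.4 ± 1.85 to 9.48 ± 0.783 CPM (log2 -2.62, edgeR adjusted p = 1.59e-39). CDKN1A and the muscle enolase gene ENO3 fell by log2 -1.26 and -1.65 with DUXC. DES and ID3 fell with DUXC too (log2 -2.74 and -0.45), and RASSF4 and ENO3 fell with DUX4 (log2 -0.64 and -0.50). RBM24 and KLHL41 also rose with DUXC (log2 2.25 and 0.62), and TNNT1 fell (log2 -1.12). Examples of the 13 that rose with DUXC, chosen after their values were seen, were CHRNA1, a subunit of the muscle acetylcholine receptor, from 0.126 ± 0.0222 to 2.26 ± 0.362 CPM (log2 4.13), and the myosin light chain gene MYL1 (log2 3.61). STAC3, needed for excitation-contraction coupling, and the cell cycle inhibitor CDKN1C rose by log2 2.38 and 2.37. The troponin gene TNNC2 rose by log2 4.38, or 5.66 without GFP replicate 1. JSRP1 stood at 7.31 CPM with DUXC, 0.0397 with DUX4 and 0.00855 with GFP.

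Satellite cell and myoblast surface and niche genes were divided. Of 27 tested from 29, 12 rose and 13 fell with DUX4 (median log2 -0.08), and 11 rose and 15 fell with DUXC (median -0.19). VCAM1, an adhesion molecule of satellite cells and of endothelium, rose from 2.75 ± 0.298 to 82.3 ± 3.92 CPM with DUXC (log2 4.91 ± 0.068, edgeR adjusted p = 1.53e-46), and SPRY1, an inhibitor of growth factor signalling needed for satellite cell quiescence, from 5.75 ± 0.607 to 40.01 ± 0.229 CPM (log2 2.80). With DUX4, SPRY1 also rose (log2 1.60) and VCAM1 fell (log2 -0.44). NOTCH3 fell with both, from 108 ± 4.34 CPM to 19.5 ± 0.801 with DUX4 and 15.7 ± 0.465 with DUXC (log2 -2.47 and -2.79). NOTCH3 is also a pericyte gene, and the summed level of 9 smooth muscle and pericyte markers, itself included, was 3090 to 3296 CPM with GFP, 1310 to 1424 CPM with DUX4 and 793 to 817 CPM with DUXC. ACTA2 and TAGLN made up most of it, at 1663 and 900 CPM with GFP, 227 and 634 with DUX4 and 355 and 254 with DUXC. CNN1, MYH11 and PDGFRB were also lower with both transgenes. MCAM was higher with both, at 8.41, 10.2 and 13.5 CPM with GFP, DUX4 and DUXC, as was RGS5, at 0.0929, 0.130 and 0.495. CSPG4 was higher with DUX4 and lower with DUXC, at 172, 301 and 38.3 CPM in that order. In every group 8 of the 9 markers reached 1 CPM, and their part in the NOTCH3 result was not tested. The hepatocyte growth factor receptor MET rose with DUX4 (log2 1.32) and FZD7 fell (log2 -1.24). Both rose with DUXC, MET by log2 0.62 and FZD7 by 0.21. CALCR, the calcitonin receptor of quiescent satellite cells, was chosen after its values were seen. It had no count with GFP, 0.644 ± 0.166 CPM with DUX4 and 2.55 ± 0.329 with DUXC, set here against a floor of 3 counts over the GFP group. That is at least 25.5-fold higher with DUX4, and with DUXC the bound is at least 101-fold.

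Of 20 tested MEF2 targets outside the sarcomere, from 23 in the table, 5 rose and 10 fell with DUX4 (median log2 -0.29), and 11 rose and 8 fell with DUXC (median 0.99). PPARGC1A, SLC2A4 and XIRP2 entered the test through their DUXC libraries, at 0.87, 0.47 and 3.43 CPM there. With GFP they stood at 0.0171, 0.0587 and 0.0338 CPM, and with DUX4 at 0.0397, 0.0484 and 0.0553. These genes, chosen after their values were seen, are among the 11 and raise the DUXC median. XIRP1, a muscle actin-binding protein, rose from 0.133 ± 0.0846 CPM with GFP to 9.08 ± 1.17 with DUXC (log2 6.04 ± 0.206, edgeR adjusted p = 5.43e-30). JUN rose from 15.8 ± 0.385 to 53.6 ± 1.27 CPM with DUX4 (log2 1.77), and XIRP1, FOS, KLF2 and FHL2 completed the 5, at log2 2.93, 1.91, 0.86 and 0.69; XIRP1, FOS and KLF2 were chosen for this comparison after their values were seen. JUN, FOS and KLF2 also rose with DUXC (log2 1.25, 1.77 and 1.08). The nuclear receptor gene NR4A2 fell with both transgenes, by log2 -0.97 with DUX4 and -0.40 with DUXC. KLF6 and FHL2 fell with DUXC (log2 -1.41 and -1.10), and FHL2 differed between the transgenes by 1.79 ± 0.032 on the log2 scale (edgeR adjusted p = 7.63e-42).

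**Figure D5:**
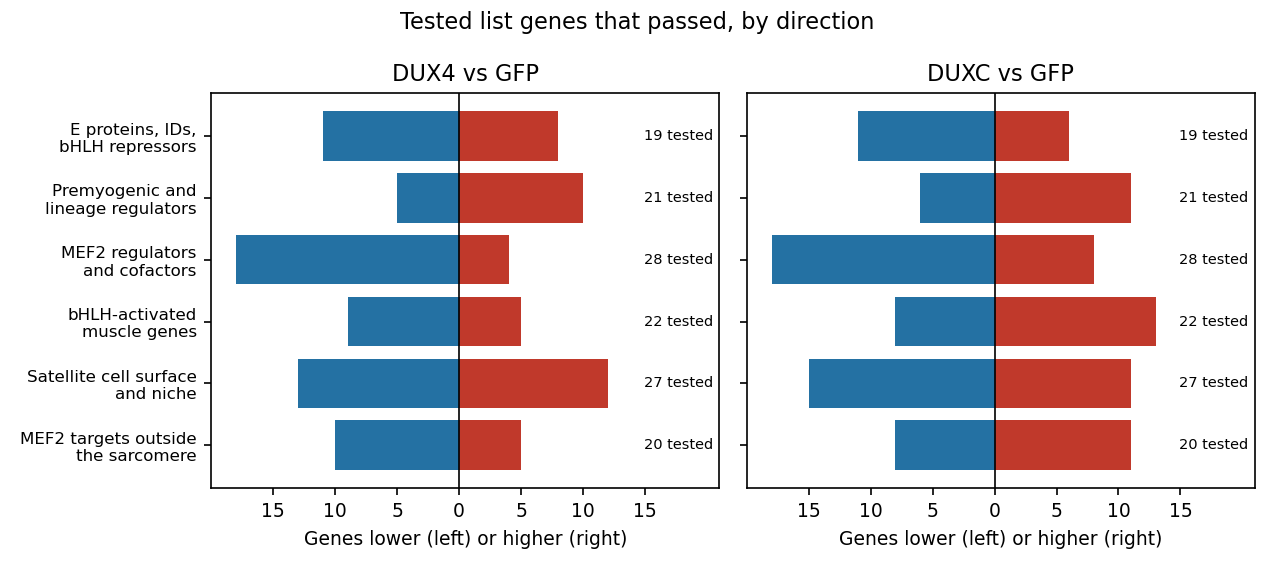
Number of tested genes of the 6 lists that passed at an adjusted p under 0.05, lower to the left and higher to the right, for DUX4 and for DUXC against GFP. The bHLH-activated muscle genes have 5 higher and 9 lower with DUX4 and 13 higher and 8 lower with DUXC.

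For each factor of at least 1 CPM on average, the genes with the most similar pattern over the 9 libraries were found among 11698 other genes, as the distance between log2(CPM + 0.5) values centred on each gene's mean. This is a description without a test. Nearest to PAX3 were GPR63, ZNF646 and OSR2, at distances of 0.314, 0.400 and 0.430. Nearest to MYF5 were PCBP3, NETO2 and FYB, at 0.325, 0.395 and 0.524. Those of MEF2C were EMX2, ZNF622 and MAD2L1BP, at 0.245, 0.246 and 0.273, of MEF2A NEK9, NSA2 and POLR1B, at 0.0993, 0.0999 and 0.107, and of MEF2D EXT2, ACTR1A and DNAJB12, at 0.0834, 0.0912 and 0.0939. For PAX3, MYF5, MEF2A and MEF2D these distances were below the factor's own spread between libraries of a group, which was 0.481, 0.576, 0.134 and 0.127 on the same scale, and for MEF2C they were above its 0.153. EMX2, a homeobox gene, stood at 14.8 CPM in the GFP group, 27.2 in the DUX4 group and 55.01 in the DUXC group.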

How the data were processed

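The authors deposited raw read counts per gene from 9 libraries made with a stranded mRNA kit, per the labels. Per the submitters' processing notes, reads were called with CASAVA 1.9, trimmed with Trim Galore and counted with featureCounts on build Sscrofa11.1, and per the file headers the alignments were made with Subread. For the annotation release and strand setting, the sources used here give nothing. Positions are those of RefSeq for the same assembly, matched by symbol for 26838 genes (98.2%). Without strand information, genes with overlapping spans can share reads. This touches MYF5, MYF6, MEF2C and at least 25 of the genes named from the lists, the similarity search and the other PAX genes.

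The filterByExpr function kept 15956 genes. All 9 libraries entered 1 fit of the robust quasi-likelihood pipeline with TMM factors, in edgeR 4.0.16 under R 4.3.3, with the group as its term. Its two-sided F test was adjusted by Benjamini-Hochberg over all tested genes of a comparison, with a threshold of 0.05. A log2 fold change is given with its SE, computed as its size over the root of F. Genes below the filter are given as raw counts and as ratios of group sums with exact conditional 95% intervals. Libraries of a group differed beyond sampling noise (chi-square over its degrees of freedom 2.62 to 17.9). The pipeline was also run on simulated data with 200 changed genes, far fewer than were called here. That run cannot show how the pipeline behaves where most genes change. Alternatives used DESeq2 1.42.0 and limma 3.58.1, other scalings and filters, a replicate block and leaving out each library. Named from each list are up to 3 genes by smallest p per transgene against GFP that passed, with at least 1 CPM in the higher group; others are marked as chosen after their values were seen, and 1 gene the rule names is not reported here. Members and lists were chosen with earlier results of these data known. Protein and promoter sequences were not used here.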

Additional observations from a re-analysis of the deposited data

How the results depend on the processing

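Across the alternatives (DESeq2's size factors, library size alone, no filter, a mean of at least 1 CPM, DESeq2, limma-voom, only the 6 libraries compared, a replicate block and each library left out), no log2 fold change of a tested factor changed sign. Of 303 refits of these fold changes 298 stayed on their side of the threshold, and the 5 others, for PAX3, MEF2A and MYF5, are given beside those genes above. PAX7 could not be fitted at a mean of at least 1 CPM, which it does not reach. With each library left out, the tested factors that passed numbered 2 to 4 with DUX4 against GFP, 6 to 6 with DUXC against GFP and 5 to 6 between the transgenes; the 4 arose without GFP replicate 2, where PAX3 and MEF2A passed as lower. Over all genes the number changed was 10341, 13165 and 13150 in these comparisons and 9791 to 10394, 12916 to 13551 and 12919 to 13446 with a library left out. Same-numbered libraries had residuals that correlated at -0.0567 to 0.0749, and not every library correlated best with its own number, so the numbers are not taken to pair the libraries. With the replicate number as a block, 10272, 13125 and 13094 genes changed, and 2, 6 and 5 of the factors. Depth limits MYOD1, MYOG and MYF6, which rest on 14, 36 and 37 reads over all 9 libraries.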

Other observations

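The 6 other paired-box genes described here moved in differing directions, and they were chosen after their values were seen. PAX6, an eye and brain factor, was the most highly counted of them, at 76.9 ± 0.985 CPM in the GFP group, 73.8 ± 1.82 in the DUX4 group and 64.6 ± 0.867 in the DUXC group, and it fell with DUXC by 0.25 ± 0.035 on the log2 scale (edgeR adjusted p = 9.73e-09). PAX2, a kidney factor, fell with DUX4 from 18.3 ± 0.0570 to 9.07 ± 0.165 CPM (log2 -1.02 ± 0.065, edgeR adjusted p = 5.71e-19) and stood at 20.9 ± 1.399 CPM with DUXC (log2 0.19, edgeR adjusted p = 0.00333, a call lost without DUXC replicate 1, at 0.0605). PAX5, a B cell factor, had 1 count with GFP, 12 with DUX4 and 41 with DUXC, and passed as higher with both. It entered the comparison of DUX4 with GFP through its DUXC libraries, since it was below the filter when DUX4 and GFP were fitted alone. Its log2 fold change there, 3.12, was 5.02 without GFP replicate 3, where the control has no count left and the fitted value is no bound. The DUX4 call (edgeR adjusted p = 0.0109) was lost without DUX4 replicate 2 or GFP replicate 1, at 0.0917 and 0.0508, and that of DUXC had an adjusted p of 4.45e-07. PAX1 and PAX9 were lower with DUX4, at log2 -0.98 and -0.45 (edgeR adjusted p = 0.000587 and 0.000780), and did not pass with DUXC, at adjusted p = 0.0642 and 0.130. Both passed with DUXC under some alternatives, PAX1 as lower and PAX9 as higher. PAX4 had 2, 10 and 3 counts in the GFP, DUX4 and DUXC groups and was not tested.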
